A study of Mus musculus with 36 samples.

Results

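The genes described here are 40 interferon-stimulated and interferon-pathway genes of the mouse, taken by symbol from a list of antiviral genes, of 52636 genes in the count tables. The list runs from the ligand Ifnb1 and its receptor chains Ifnar1 and Ifnar2, through the signalling and feedback genes Stat2, Usp18, Isg15, Herc6, Trim25, Trim30a and Parp14, to the RNA sensors Ddx58, Ifih1 and Dhx58 and the effectors. The effectors are 4 IFIT genes, 6 genes of the OAS family, the enzymes Rsad2, Cmpk2 and Isg20, 9 GTPases (Mx1, Mx2, Gbp2, Gbp3, Gbp5, Gbp7, Ifi47, Irgm1 and Igtp) and 5 others (Bst2, Ifi44, Ifi35, Xaf1 and Rtp4). All 40 passed the filter on low counts and were tested. They were read in RNA-seq libraries of bone marrow-derived macrophages, grown from mouse marrow in M-CSF, from wild-type (WT) mice and from N4bp1 knockout (KO) mice. The culture protocol names C57BL/6N mice. N4BP1 is an inhibitor of inflammatory signalling that is cleaved by caspase-8. The macrophages of each genotype received R837 (imiquimod, an agonist of TLR7) for 3 h, R837 for 7 h, or R837 for 3 h and then actinomycin D (ActD), an inhibitor of RNA synthesis, for 0.5, 1, 2 or 4 h. There were 12 groups of 3 libraries, 36 in all, and per the labels the 3 libraries were macrophages of 3 individual mice. Every group was stimulated, so no level before R837 is known. The sources used here do not give the position of the N4bp1 deletion or the sex and age of the mice.

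TLR7 is an endosomal receptor for single-stranded RNA that signals through MyD88 to NF-kB and to interferon regulatory factors. Secreted interferon beta binds the receptor IFNAR1 and IFNAR2, and the kinases JAK1 and TYK2 then activate transcription factors, STAT2 and IRF9 among them, that bind interferon-stimulated response elements (ISRE) in promoters. Many of the induced proteins recognise viral RNA, block its translation or replication, or, like USP18, shut the receptor off again. Macrophages transcribe several of these genes also directly through interferon regulatory factors, without the receptor.

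Counts per library summed to 20.3 to 46.1 M (median 26.3 M), of which the 40 genes took 1.087 to 2.041%. The farthest replicate pair was WT at 0.5 h of ActD, replicates 1 and 3, with a chi-square per degree of freedom of 50.7 over genes against 2.33 for the closest pair. N4bp1 itself was at 81.3 to 86.0 CPM (read counts scaled to library size) in KO and 125 to 147 CPM in WT at 3 h of R837, and at 141 to 145 CPM against 169.8 to 182.5 CPM at 7 h. After 4 h of ActD it was higher in the libraries labelled KO, at 76.8 to 94.2 CPM against 53.4 to 63.3 CPM. The count covers all exons and the deleted part is not known, so these reads do not check the labels, and WT and KO mean the libraries labelled so. Macrophage markers (9 genes) summed to 20220 to 51450 CPM in every WT library and 21300 to 36560 CPM in KO. Markers of T and NK cells summed to 19.7 to 35.4 CPM in KO and 10.6 to 21.2 CPM in WT, with 7 of 9 never above 1 CPM, and those of fibroblasts to 29.1 to 40.5 CPM in KO and 12.2 to 24.0 CPM in WT, ranges that did not overlap. Plasma cell markers summed to 318 to 650 CPM in KO and 162 to 373 CPM in WT, and those of conventional dendritic cells to 28.7 to 55.7 CPM and 21.2 to 43.1 CPM. For both lists every KO library was above every WT library of its condition, and for T and NK cells this held except at 7 h. Neutrophil markers summed to 860 to 896 CPM in KO and 569 to 589 CPM in WT at 7 h, and overlapped at 3 h. Markers of plasmacytoid dendritic cells, which make much interferon, summed to 946 to 1439 CPM in KO and 981 to 1456 CPM in WT (a list that includes Bst2). At 7 h these sums were 946 to 995 CPM in KO and 981 to 1013 CPM in WT. Bst2, itself a member of the 40, was then at 649 to 697 CPM in KO and 631.5 to 654 CPM in WT. The sum thus mostly follows Bst2 and does not measure these cells. The part of the marker differences in the genotype results was not tested. In whole cultures, fewer cells of a type and less RNA per cell cannot be told apart.

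The 40-base windows below, from RefSeq promoters of the build GRCm38.p6, show a match to the core of the ISRE at members whose levels carry the results. The capitals mark the match, which is GAAA, any 2 bases and GAAA again, or on the other strand TTTC, any 2 bases and TTTC, and each sequence reads 5′ to 3′ along the strand of its gene.
Rsad2, chr12:26456548-26456587 (minus strand): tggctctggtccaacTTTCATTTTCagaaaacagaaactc
Ifit1, chr19:34640789-34640828 (plus strand): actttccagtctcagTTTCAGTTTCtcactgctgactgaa
Ifit3, chr19:34583392-34583431 (plus strand): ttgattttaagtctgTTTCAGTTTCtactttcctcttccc
Oas3, chr5:120777710-120777749 (minus strand): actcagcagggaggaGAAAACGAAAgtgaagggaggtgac
Gbp5, chr3:142496754-142496793 (plus strand): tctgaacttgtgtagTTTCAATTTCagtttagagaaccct
Isg15, chr4:156200866-156200905 (minus strand): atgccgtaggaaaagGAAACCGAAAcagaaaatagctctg
Gbp2, chr3:142620589-142620628 (plus strand): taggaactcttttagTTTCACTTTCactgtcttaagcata
The window of Ifit3b at chr19:34607788-34607827 is identical to that of Ifit3. In the 250 bases before the start, 17 of the 33 members with a promoter entry held this core (51.5%), against 936 of 27025 genes (3.46%). A GAS core, TTCNNNGAA, which reads the same on both strands, was in 8 of 33 (24.2%) against 8.13% of genes, and an NF-kB core (GGG, any 2 bases and TTTCC, on either strand) was in 1 of 33, Gbp5 (3.03%), against 1.65%. The core of the ISRE was absent from the window of Cmpk2, Ifit2, Ifi44, Oasl2 and Ifi47, among others, which says only that these letters are not there. Members without an entry were Usp18, Mx1, Mx2, Oas2, Dhx58, Parp14 and Rtp4.

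At 3 h of R837 the list split. Rsad2, Cmpk2, Ifit1, Ifit2 and Ifit3 were lower in KO than in WT, and Ifi44, Oas3, Oasl2, Parp14, Trim25 and Ifnar2 were higher. In all 10 members were called higher in KO and 7 lower (adjusted p below 0.05 in edgeR's quasi-likelihood test over 13748 genes), where 15.2% of all genes tested were called higher and 12.6% lower. The median log2 difference between KO and WT was 0.08 over the members and 0.006 over all genes, and the members ranged from −0.71 for Cmpk2 to 0.75 for Ifi44. A count near the background is not a result about the list as a whole. At 7 h 5 members were called higher and 10 lower, against 15.5% and 15.1% of all genes, with a median of −0.09 over the members and −0.007 over all genes. Libraries were scaled by TMM, which sets the average transcript level. Scaling to ribosomal protein genes instead moved the median difference of all genes at 3 h to 0.257 and that of the members to 0.33. It gave 20 members higher and 1 lower, Cmpk2, where 32% of all genes were called higher and 2.21% lower. The median of all genes thus moved along with that of the members. At 7 h that scaling gave 6 higher and 7 lower, where 11.3% and 10.7% of all genes were called. For comparisons under ActD and over time, the share of all genes called under the ribosomal scaling is not given. Counts of members called under that scaling in those comparisons therefore have no background here and are not a result about the list. A 7 h fit on the 6 compared libraries alone, rather than on all 36, gave 9 higher and 21 lower, where 24.9% and 23.7% of all genes were called, so a missing call at 7 h depends on which libraries set the spread.

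After ActD the lower calls outnumbered the higher ones from 1 h on, as plotted in the heat map of genotype differences. At 0.5 h 10 members were higher and 9 lower in KO (13.7% and 12.7% of all genes), and at 1 h 5 and 18 (7.51% and 9.92%). At 2 h 7 were higher and 18 lower (14.7% and 15.4%), and at 4 h 6 and 17 (17.7% and 17.9%). The members' medians were 0.06, −0.21, −0.19 and −0.14, while those of all genes lay between −0.017 and 0.001. Scaled to ribosomal protein genes, the counts were 15 and 3, 3 and 13, 11 and 8, and 15 and 5, with medians of 0.24, −0.29, 0.01 and 0.19 over the members and 0.165, −0.095, 0.189 and 0.324 over all genes. Over the 6 conditions, 26 members were called lower at least once and 16 higher at least once, 3 of them both ways, and Gbp3 was never called. The share of all genes called at least once was not worked out, so these counts have no background and are not a result about the list. Lower in all 6 were Rsad2, Cmpk2, Ifit2 and Ifit3, where 1.89% of all genes tested were lower in all 6. Higher calls reached 5 of the 6 conditions at most, for Ifnar2 and Ifi44. No member was thus higher in all 6, where 2.99% of all genes were by edgeR's test. The share of all genes higher in 5 conditions was not worked out. Under the ribosomal scaling Cmpk2 alone was lower in all 6, and without KO replicate 1 or WT replicate 3 at 3 h the number fell to 2, Rsad2 and Cmpk2.

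**Figure D1:**
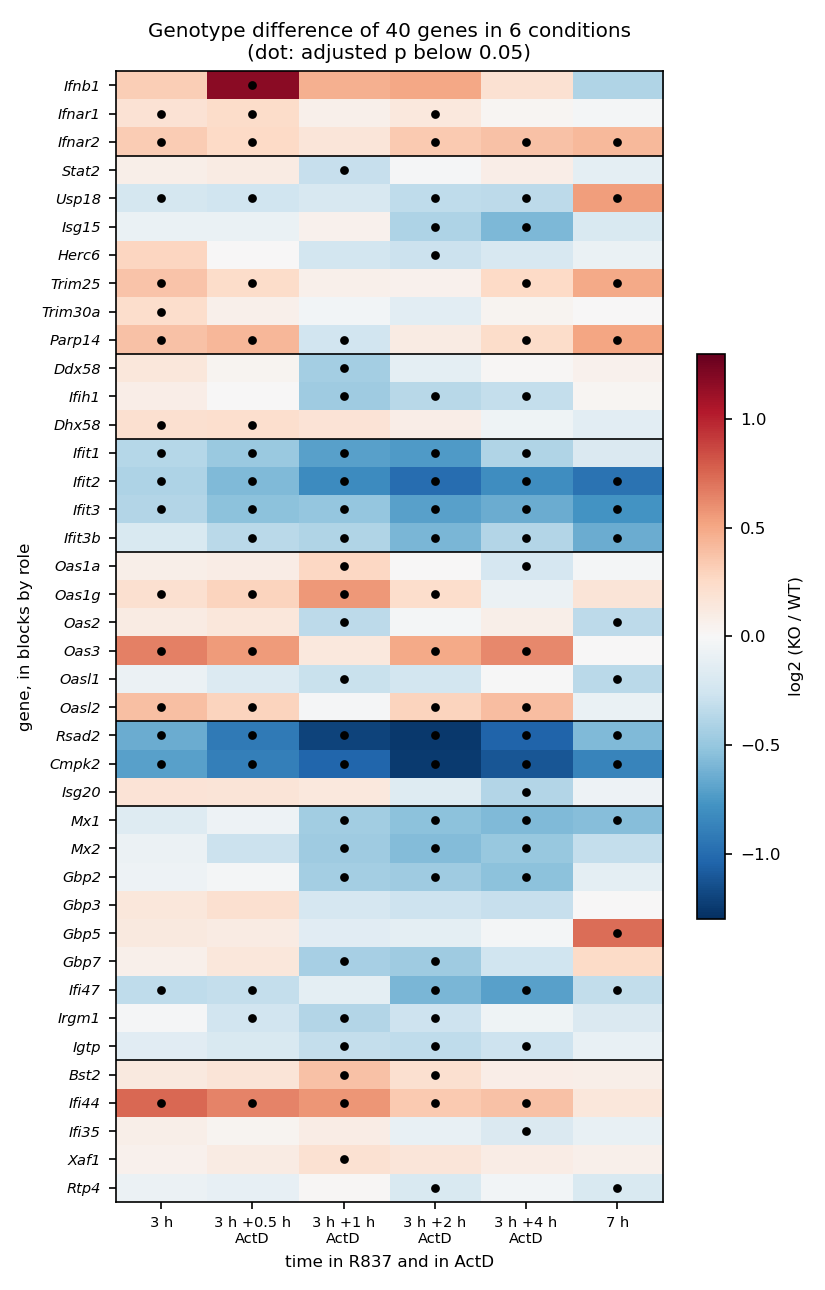
Log2 difference of KO minus WT for each of the 40 genes (rows, grouped by role) in the 6 conditions (columns), with a dot where the adjusted p is below 0.05. Rsad2, Cmpk2, Ifit2 and Ifit3 are negative with a dot in every column, and Ifnar2, Trim25, Oas3 and Ifi44 are positive in every column.

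Rsad2 encodes viperin, an enzyme that makes a chain-terminating nucleotide, and its neighbour Cmpk2 encodes a mitochondrial nucleotide kinase that supplies the substrate. Both lie on chromosome 12 and point away from each other, Rsad2 at chr12:26442746-26456452 on the minus strand and Cmpk2 at chr12:26469204-26479837 on the plus strand (GRCm38). At 3 h of R837 Rsad2 was at 1224, 1272 and 1211 CPM in the WT libraries and at 783, 771 and 826 CPM in the KO libraries. The groups did not overlap, and KO was 1.56-fold lower (log2 −0.64 ± 0.12 SE, edgeR adjusted p = 0.000146). Cmpk2 was at 957, 1001 and 969.5 CPM in WT and at 548, 607 and 635 CPM in KO. Every KO library was below every WT library, by 1.64-fold on the fitted means (log2 −0.71 ± 0.11, edgeR adjusted p = 5.73e-06). At 7 h both genes were lower in both genotypes and the order was the same. Rsad2 was at 281, 289 and 287 CPM in WT and 193, 187 and 198 CPM in KO (log2 −0.57 ± 0.12, edgeR adjusted p = 0.000409). Cmpk2 was at 328, 309 and 315 CPM in WT and 174, 169 and 182 CPM in KO (log2 −0.86 ± 0.11, edgeR adjusted p = 6.75e-08). Under ActD the fitted difference was larger than at 3 h of R837 for both genes. For Rsad2 it was −0.92, −1.20, −1.25 and −1.04 at 0.5, 1, 2 and 4 h, and for Cmpk2 −0.89, −1.03, −1.24 and −1.11, all called. The widening itself was not tested, and neither gene's slope over hours of ActD was called different between the genotypes. After 2 h of ActD Cmpk2 reached 1829, 1406 and 1392 CPM in WT and 718, 614 and 630.0 CPM in KO, with no overlap. With the ribosomal scaling Cmpk2 was lower in KO at each of the 6 conditions (−0.47, −0.70, −1.11, −1.05, −0.81 and −0.83), whereas Rsad2 at 3 h was at −0.39 and lost its call (adjusted p = 0.0737) and was called at the other 5. Isg20, an exonuclease that degrades viral RNA, was not called at 3 h (18.3, 21.3 and 24.2 CPM in WT, 22.1, 24.95 and 25.7 CPM in KO) and was lower in KO at 4 h of ActD (−0.38, edgeR adjusted p = 0.011), a call lost without KO replicate 2 (−0.32) or WT replicate 3 (−0.34) and under the ribosomal scaling (−0.06).

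The IFIT proteins bind viral RNA and hold back its translation: IFIT1 recognises caps that lack ribose methylation, and IFIT2 and IFIT3 bind it as partners. All 4 genes lie in a row on chromosome 19, Ifit2 at chr19:34550694-34576419, Ifit3 at chr19:34583531-34588731, Ifit3b at chr19:34607970-34613401 and Ifit1 at chr19:34640871-34650009, on the plus strand. In the KO libraries 3 of the 4 were lower at 3 h, all 4 at 0.5, 1, 2 and 4 h of ActD, and 3 at 7 h, where 12.6%, 12.7%, 9.92%, 15.4%, 17.9% and 15.1% of all genes were called lower; with the ribosomal scaling none was called at 3 h, 1 at 0.5 h, 4 at 1 h and at 2 h, 2 at 4 h and 3 at 7 h, and Ifit3b at 3 h went from −0.20 to 0.05, not called either way. Ifit2 at 3 h was at 637, 793 and 849 CPM in WT and 536, 598 and 598 CPM in KO. The groups did not overlap, and KO was 1.32-fold lower (log2 −0.40 ± 0.12, edgeR adjusted p = 0.0153). Without WT replicate 3 the difference was −0.31 (adjusted p = 0.111) and without KO replicate 1 it was −0.35 (adjusted p = 0.0868). Ifit3 at 3 h was at 321, 391 and 419 CPM in WT and 261, 302 and 305 CPM in KO (log2 −0.38 ± 0.10, edgeR adjusted p = 0.00572). Here too the groups did not overlap, and the same 2 libraries decided the call, with −0.30 (adjusted p = 0.0629) without WT replicate 3 and −0.32 (adjusted p = 0.0579) without KO replicate 1. Ifit1 at 3 h was at 830, 964 and 989 CPM in WT and 664, 737 and 749.7 CPM in KO, again without overlap (log2 −0.37 ± 0.10, edgeR adjusted p = 0.00478). With the ribosomal scaling the 3 h differences of Ifit1, Ifit2 and Ifit3 were −0.13, −0.15 and −0.13 and none was called.

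At 7 h of R837 Ifit2 stood at 402, 354 and 365 CPM in WT and 201, 187 and 188 CPM in KO, a 1.94-fold gap with no overlap (log2 −0.96 ± 0.13, edgeR adjusted p = 7.27e-08). Ifit3 stood at 227, 212 and 218 CPM in WT and 129, 123 and 132 CPM in KO (log2 −0.78 ± 0.11, edgeR adjusted p = 1.67e-07). Ifit3b, at 16.1, 15.2 and 15.6 CPM in WT and 9.35, 9.92 and 10.9 CPM in KO, was lower as well (log2 −0.64 ± 0.13, edgeR adjusted p = 0.000141). Ifit1 was at 349, 335.1 and 332 CPM in WT and 304, 292 and 298 CPM in KO, ranges that did not overlap but gave no call (log2 −0.19, edgeR adjusted p = 0.168); in the fit of the 6 compared libraries alone it was called (edgeR adjusted p = 2.94e-06). The ribosomal scaling left the 7 h values of Ifit2 and Ifit3 at −0.94 and −0.75, both called. Ifit3 and Ifit3b share 51.2% and 45.0% of their distinct 50-base stretches with other genes, mostly with each other, so their counts may be split between them; Ifit2 shares none. The plot of levels by library shows 4 of these genes in all 12 groups.

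The ligand Ifnb1, interferon beta, was near the detection limit in every group. It was at 0.664, 0.812 and 1.17 CPM in WT and 0.762, 0.916 and 1.73 CPM in KO at 3 h, and at 0.583, 0.421 and 0.375 CPM in WT and 0.350, 0.294 and 0.400 CPM in KO at 7 h. The groups overlapped at both times and neither difference was called (edgeR adjusted p = 0.453 and 0.496). It was called higher in KO at 0.5 h of ActD only (log2 1.17 ± 0.35, edgeR adjusted p = 0.0107), where 0.385, 0.340 and 0.433 CPM in WT stood against 0.808, 0.989 and 0.815 CPM in KO, and not without WT replicate 2 (1.07). Of 20 other interferon genes in the tables, 14 had no read in any library, and only Ifng passed the filter, with 519 reads over the 36 libraries.

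The receptor chains were both called higher in KO at 3 h. Ifnar2 was at 199, 207 and 188 CPM in WT and 248, 258 and 242 CPM in KO, with no overlap (log2 0.33 ± 0.06, edgeR adjusted p = 0.000116). By 7 h the values were 225, 223 and 227 CPM in WT and 298, 305 and 297 CPM in KO (log2 0.42 ± 0.06, edgeR adjusted p = 1.11e-06), and it was higher in KO in 5 of the 6 conditions. Ifnar1, at 254, 279.9 and 268 CPM in WT and 307, 315 and 290.4 CPM in KO at 3 h, showed a smaller gap (log2 0.19 ± 0.05, edgeR adjusted p = 0.00844), lost without WT replicate 1 (0.15) or KO replicate 2 (0.16). By 7 h Ifnar1 was at 327, 328 and 322 CPM in WT and 321, 322 and 315 CPM in KO, overlapping groups with a difference of −0.03.

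Among the signalling and feedback genes, Trim25 and Parp14 were higher in KO at both 3 h and 7 h, and Usp18 changed sides. Trim25, a ubiquitin ligase that acts on RIG-I, was at 346, 357 and 379.5 CPM in WT and 459.5, 483 and 452.5 CPM in KO at 3 h (log2 0.37 ± 0.06, edgeR adjusted p = 4.28e-06). At 7 h it was at 196, 208 and 212 CPM in WT and 282, 289.5 and 293 CPM in KO (log2 0.49 ± 0.06, edgeR adjusted p = 3.83e-09), again without overlap. Parp14, a mono-ADP-ribosyltransferase, was at 384, 487 and 468 CPM in WT and 595, 612 and 539.6 CPM in KO at 3 h, without overlap (log2 0.38 ± 0.09, edgeR adjusted p = 0.00107). The same gene was at 315, 323 and 318 CPM in WT and 429, 461 and 468 CPM in KO at 7 h (log2 0.51 ± 0.09, edgeR adjusted p = 1.18e-05). At 1 h of ActD Parp14 was lower in KO (−0.25, edgeR adjusted p = 0.0376), a call lost without KO replicate 1 (−0.26), KO replicate 3 (−0.21) or WT replicate 3 (−0.17) and under the ribosomal scaling (−0.33, edgeR adjusted p = 0.106).

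Usp18 encodes a protease that removes ISG15 from proteins and also blocks IFNAR2. At 3 h it was at 379.6, 422.5 and 439.5 CPM in WT and 319, 359.8 and 378 CPM in KO, neighbouring ranges that did not overlap (log2 −0.23 ± 0.08, edgeR adjusted p = 0.028). That call was lost in 4 of the 6 fits that left out 1 library, and with the ribosomal scaling the value was 0.01. It was lower in KO also at 0.5, 2 and 4 h of ActD (−0.26, −0.33 and −0.34). All 3 of those calls were lost under the ribosomal scaling (−0.08, −0.13 and −0.02), and the one at 0.5 h in 3 of 6 fits without 1 library. At 7 h Usp18 was at 581.5, 547 and 580.3 CPM in WT and 856, 793 and 832 CPM in KO, 1.45-fold higher in KO (log2 0.54 ± 0.08, edgeR adjusted p = 9.2e-07), a call kept in every fit without 1 library and under each of the 3 other scalings.

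Isg15, a ubiquitin-like modifier, overlapped between genotypes at 3 h, at 428.5, 501 and 621 CPM in WT and 427, 487.5 and 544 CPM in KO. It was lower in KO after 2 and 4 h of ActD (−0.40 and −0.58), with 1137, 1294 and 1522 CPM in WT and 886, 841 and 918 CPM in KO at 4 h (edgeR adjusted p = 0.000365). At 2 h the call was lost without KO replicate 2 (−0.35) or KO replicate 3 (−0.37). Under the ribosomal scaling Isg15 was at −0.19 at 2 h and −0.24 at 4 h and called at neither. At 7 h Isg15 was at 1177, 1131 and 1172 CPM in WT and 1018, 977 and 1027 CPM in KO, and its difference of −0.20 was not called (edgeR adjusted p = 0.234) although the ranges did not overlap; the fit of the 6 compared libraries called it (edgeR adjusted p = 7.8e-08). Stat2, a subunit of the factor that binds the ISRE, was at 153, 182 and 175 CPM in WT and 179.6, 192 and 169 CPM in KO at 3 h, and at 199.9, 193 and 192 CPM in WT and 177, 176 and 182 CPM in KO at 7 h. Neither was called; it was lower in KO at 1 h of ActD alone (−0.30), a call lost without KO replicate 3 (−0.23), WT replicate 1 (−0.25) or WT replicate 3 (−0.27) and under the ribosomal scaling (−0.38, edgeR adjusted p = 0.0982). Herc6, the mouse ligase for ISG15, rose over time, as described with the time course, and differed between genotypes only at 2 h of ActD (−0.28, edgeR adjusted p = 0.0453), a call lost in 5 of 6 fits without 1 library and under the ribosomal scaling (−0.09). Trim30a, a negative regulator of TLR signalling, was called higher in KO only at 3 h (0.23, edgeR adjusted p = 0.0302), lost in 4 of 6 such fits.

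The RNA sensors differed little between genotypes at 3 h and 7 h. Ddx58, which encodes RIG-I, and Ifih1, which encodes MDA5, were called at neither time, and both were lower in KO at 1 h of ActD (−0.44, edgeR adjusted p = 0.00016, and −0.46, edgeR adjusted p = 0.000728). Ddx58 was then at 167, 147 and 167 CPM in WT and 125, 117 and 112 CPM in KO, without overlap. Ifih1 was also lower at 2 h (−0.36), not without WT replicate 1 (−0.25), and at 4 h (−0.31), not without KO replicate 2 (−0.25), and at neither time under the ribosomal scaling (−0.16 and 0.00). Dhx58, which encodes the regulator LGP2, was higher in KO at 3 h and at 0.5 h of ActD (0.21 and 0.22), the first call lost in 4 of 6 fits without 1 library and the second in 3.

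Of the 6 genes of the OAS family, 3 were called higher in KO at 3 h, Oas3, Oasl2 and Oas1g, and no other member of the family was called (4 higher with the ribosomal and 2 with the upper-quartile scaling), where 15.2% of all genes were called higher. OAS enzymes sense double-stranded RNA and make 2'-5' oligoadenylates that activate RNase L, while the OASL proteins lack that activity or serve other roles in interferon regulation. Oas3 was at 116, 123 and 102 CPM in WT and 201, 177 and 158 CPM in KO at 3 h, 1.57-fold higher with no overlap (log2 0.66 ± 0.10, edgeR adjusted p = 7.32e-06). At 7 h the 2 genotypes were level, at 186, 182 and 180.0 CPM in WT and 184.5, 186.5 and 182 CPM in KO (log2 0.01). Oasl2 was at 241, 280.3 and 244.5 CPM in WT and 351, 332 and 321 CPM in KO at 3 h (log2 0.39 ± 0.09, edgeR adjusted p = 0.000949). By 7 h Oasl2 overlapped, at 423, 398 and 403 CPM in WT and 359.6, 390.3 and 401 CPM in KO (log2 −0.09). Oas1g was higher in KO in 4 of 6 conditions, the widest at 1 h of ActD (0.56, edgeR adjusted p = 2.81e-07); at 3 h (0.21) the call was lost in 4 of 6 fits without 1 library. Oas1g and Oas1a share 45.7% and 57.6% of their 50-base stretches with each other and Oas1b, so their counts are uncertain. Oasl1, which represses translation of IRF7, was at 182.5, 205 and 191 CPM in WT and 176, 189 and 183 CPM in KO at 3 h, overlapping, and at 103, 98.0 and 101 CPM in WT and 79.3, 73.8 and 83.9 CPM in KO at 7 h, without overlap (log2 −0.35 ± 0.10, edgeR adjusted p = 0.00432). Oas2 was also lower in KO at 7 h (−0.34, edgeR adjusted p = 0.00642). Both 7 h calls were lost under the ribosomal scaling, where Oasl1 and Oas2 were each at −0.32 (edgeR adjusted p = 0.105 and 0.113).

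Of the 9 GTPases, none was called higher in KO before 7 h, and lower calls numbered 1 at 3 h, 2 at 0.5 h, 6 at 1 h, 7 at 2 h and 5 at 4 h of ActD. The share of all genes called lower at those times was 12.6%, 12.7%, 9.92%, 15.4% and 17.9%, so the counts at 3 h and 0.5 h are near the background. The group's medians at those times were −0.07, −0.07, −0.38, −0.46 and −0.30. With the ribosomal scaling they were 0.18, 0.13, −0.46, −0.26 and 0.02, with 2 higher calls at 3 h, 1 at 0.5 h, and 5, 2 and 1 lower calls at 1, 2 and 4 h. The gene annotation types Mx2 as a polymorphic pseudogene. Values of Mx1 and Mx2 are RNA levels and do not show that a working protein was made. Mx1, a dynamin-like GTPase, was at 62.9, 78.7 and 89.4 CPM in WT and 66.98, 67.02 and 72.3 CPM in KO at 3 h, overlapping. By 7 h it was at 241, 218 and 214 CPM in WT and 157, 153 and 151 CPM in KO, 1.46-fold lower with no overlap (log2 −0.55 ± 0.10, edgeR adjusted p = 5.66e-05). Gbp2, a guanylate-binding protein that attacks pathogen vacuoles, spread widely among WT libraries at 3 h (214, 299 and 365 CPM) around the KO libraries (251, 284 and 300.3 CPM). At 7 h it was at 1170, 1101 and 1155 CPM in WT and 1036, 1052 and 1042 CPM in KO (log2 −0.13, not called), and in between, at 1, 2 and 4 h of ActD, it was lower in KO (−0.44, −0.46 and −0.53). The 2 h call was lost without WT replicate 1 (−0.38) and the 1 h call in 4 of 6 fits without 1 library, and those at 2 h and 4 h under the ribosomal scaling (−0.26 and −0.20). Ifi47, an immunity-related GTPase, was lower in KO in 5 of 6 conditions, from −0.31 at 0.5 h to −0.71 at 4 h of ActD. At 3 h (−0.33) its call was lost without KO replicate 1 or WT replicate 3 (−0.23 in each case), and at 0.5 h and 7 h it was lost in 3 of 6 fits. Under the ribosomal scaling Ifi47 was at −0.09 at 3 h and −0.11 at 0.5 h, not called. Gbp5, which promotes inflammasome assembly and restricts envelope proteins, overlapped at 3 h, at 274.5, 339.6 and 357 CPM in WT and 336, 378 and 349 CPM in KO. Its 7 h values were 206.5, 199 and 198 CPM in WT and 324, 352 and 326 CPM in KO, 1.66-fold higher in KO with a wide gap (log2 0.73 ± 0.08, edgeR adjusted p = 2.02e-09).

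Of the 5 remaining genes, Ifi44, a cytoplasmic protein with antiviral activity, had the highest difference of the 40 at 3 h. It was at 45.2, 44.4 and 50.8 CPM in WT and 83.6, 71.8 and 81.4 CPM in KO, 1.69-fold higher without overlap (log2 0.75 ± 0.13, edgeR adjusted p = 3.82e-05). At 7 h it was at 148, 129 and 144.5 CPM in WT and 157, 158 and 151 CPM in KO, close ranges with no call (log2 0.15, edgeR adjusted p = 0.426). Bst2, or tetherin, which holds budding virions on the cell, was higher in KO at 1 h (0.38) and 2 h of ActD (0.21), the latter not without KO replicate 1 (0.16) or WT replicate 2 (0.19). Ifi35 was lower in KO at 4 h of ActD alone (−0.19) and Xaf1, a cofactor of apoptosis, higher at 1 h alone (0.20); both calls failed in 3 or more fits without 1 library and under the ribosomal scaling (0.13 in each case). Rtp4, a chaperone that restricts flaviviruses, was at 348.5, 342 and 373 CPM in WT and 321, 323.5 and 363 CPM in KO at 3 h. At 7 h it was at 352, 339 and 348 CPM in WT and 312, 299 and 293 CPM in KO (log2 −0.20 ± 0.07, edgeR adjusted p = 0.0359), a call lost in 5 of 6 fits without 1 library and under the ribosomal scaling (−0.18).

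Leaving out each library in turn kept 9 of the 17 calls at 3 h in every fit, 6 higher and 3 lower, and 13 of the 15 at 7 h, 5 higher and 8 lower. The ribosomal scaling ended 6 of the 17 calls at 3 h, 6 of 19 at 0.5 h, 7 of 23 at 1 h, 10 of 25 at 2 h and 12 of 23 at 4 h of ActD, and 3 of 15 at 7 h. Calls at 3 h that held in all of these fits and also under the 3 other scalings were Ifnar2, Trim25, Parp14, Oas3, Oasl2 and Ifi44, higher in KO, and Cmpk2, lower. At 7 h they were Ifnar2, Usp18, Trim25, Parp14 and Gbp5, higher, and Ifit2, Ifit3, Ifit3b, Rsad2, Cmpk2 and Mx1, lower.

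Per length, the most abundant members in WT at 3 h were Bst2 at 838 RPKM (reads per kilobase of transcript, scaled to library size), Isg15 at 670 RPKM, Ifi47 at 434 RPKM, Ifit1 at 342 RPKM, Rsad2 at 320 RPKM and Cmpk2 at 299 RPKM, as means of the authors' values. At 7 h in WT the order was Isg15 at 1430 RPKM, Bst2 at 757 RPKM, Gbp2 at 424 RPKM and Ifi47 at 404 RPKM, and Rsad2 was at 70.5 RPKM. In KO at 7 h Usp18, at 408 RPKM, ranked above Gbp2, at 363 RPKM.

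Between 3 h and 7 h of R837 the list turned over. In WT 23 members rose and 13 fell, where 27.3% of all genes tested rose and 30.7% fell, with a median of 0.29 over the members and −0.035 over all genes. In KO 17 rose and 12 fell (28.7% and 31.7% of all genes), with medians of 0.15 and −0.027. Fastest to fall were Rsad2 (log2 −2.11 ± 0.13 in WT and −2.04 ± 0.13 in KO), Ifit3b (−1.87 and −2.31) and Cmpk2 (−1.62 and −1.77). All 4 IFIT genes fell in both genotypes, under TMM and the 3 other scalings alike. The plot of both changes shows these genes at its lower left.

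Herc6 rose most in WT, from 41.5, 42.7 and 47.6 CPM to 185, 176 and 174.5 CPM, 4.06-fold (log2 2.02 ± 0.11, edgeR adjusted p = 8.3e-19). In KO it rose from 56.3, 49.3 and 54.8 CPM to 167, 169.8 and 166 CPM (log2 1.65 ± 0.11). Gbp2 rose by 1.96 ± 0.14 in WT and 1.91 ± 0.14 in KO on the log2 scale, from the levels given above. Isg20 rose to 83.9, 68.4 and 76.7 CPM in WT and 76.2, 70.7 and 71.4 CPM in KO (log2 1.84 ± 0.13 and 1.59 ± 0.13). Gbp3, the guanylate-binding protein that was never called between genotypes, went from 68.3, 93.3 and 114 CPM to 341, 316 and 323 CPM in WT (log2 1.83 ± 0.13) and from 92.4, 106 and 108 CPM to 329.5, 334 and 321 CPM in KO (log2 1.69 ± 0.13). For each of these 4 genes no 7 h library was as low as any 3 h library.

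**Figure D2:**
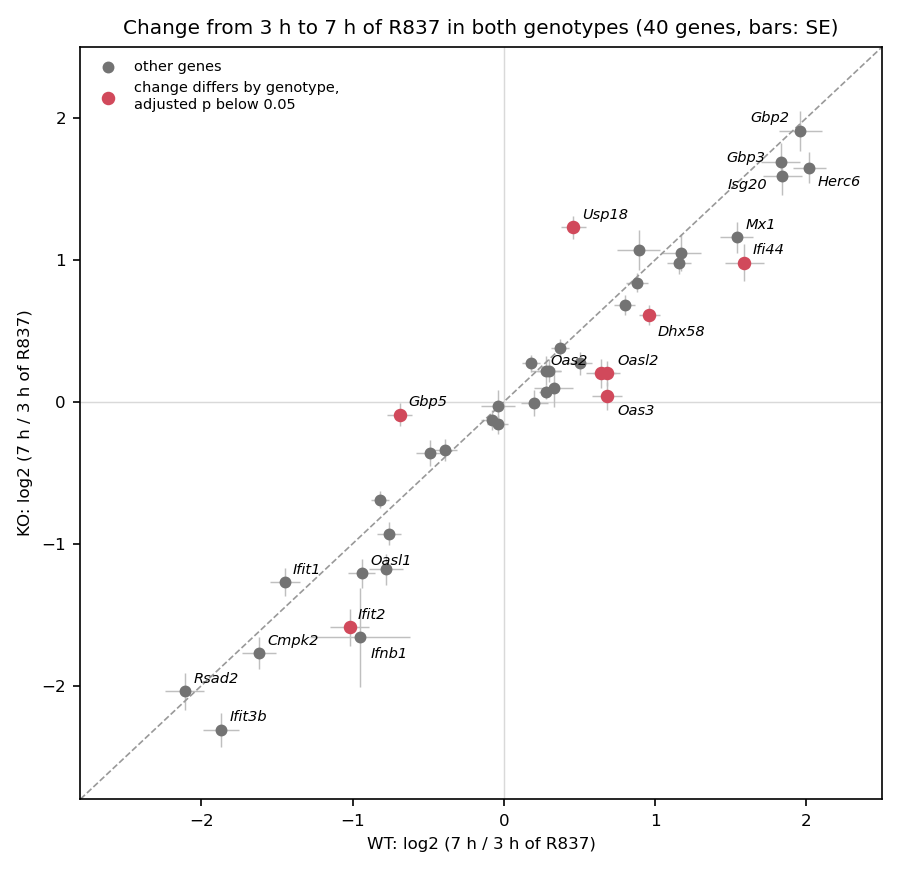
Log2 change from 3 h to 7 h of R837 in WT (x axis) and KO (y axis) for the 40 genes, with standard errors; the 8 genes whose change differed between genotypes are in red. Usp18 and Gbp5 lie above the diagonal and Dhx58, Ifit2, Oas2, Oas3, Oasl2 and Ifi44 below it.

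The change from 3 h to 7 h itself differed between the genotypes for 8 members, 2 with a higher and 6 with a lower change in KO, where 5.45% of all genes tested had a higher and 6.84% a lower change. Usp18 rose 1.38-fold in WT (log2 0.46 ± 0.08) and more in KO (log2 1.23 ± 0.08), a difference of 0.77 ± 0.11 (edgeR adjusted p = 2.81e-06). Gbp5 fell in WT (log2 −0.69 ± 0.08) and was at −0.09, not called, in KO, a difference of 0.60 ± 0.12 (edgeR adjusted p = 0.000201). Gbp5's difference was 0.37 and not called (adjusted p = 0.147) under the ribosomal scaling. Oas3 rose in WT (log2 0.68 ± 0.10) and was at 0.04, not called, in KO, a difference of −0.64 ± 0.15 (edgeR adjusted p = 0.00165). Oasl2 had the same pattern, with 0.68 in WT, 0.20 in KO and a difference of −0.48 ± 0.12 (edgeR adjusted p = 0.00613). Usp18, Gbp5, Oas3 and Oasl2 kept the call in all 12 fits that left out 1 library. Ifi44 (−0.61, edgeR adjusted p = 0.0207) lost it without WT replicate 1 at 7 h (−0.57), KO replicate 1 at 3 h (−0.56) or WT replicate 2 at 3 h (−0.57). Ifit2 (−0.56, edgeR adjusted p = 0.0275) lost it in 5 fits, Oas2 (−0.45, edgeR adjusted p = 0.0282) in 6, and Dhx58 (−0.34, edgeR adjusted p = 0.0136) without WT replicate 1 at 7 h (−0.30). Scaled to ribosomal protein genes, 1 member had a higher and 14 a lower change in KO, with the median of all genes at −0.239 and that of the members at −0.37.

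During ActD most members gained on the average transcript. With no spike-in used here, a level under ActD is a share of the remaining RNA, and a rise means that a transcript was lost more slowly than the average one or was still made. From 0 to 4 h of ActD 31 members rose and 6 fell in WT (31.9% and 36.6% of all genes) with a median of 0.76 over the members and −0.025 over all genes, and 28 rose and 7 fell in KO (31.2% and 36.7%), with medians of 0.61 and −0.045. Scaled to ribosomal protein genes, the median of all genes was −0.701 in WT and −0.648 in KO and that of the members 0.09 and 0.01, with 19 members up and 11 down in WT and 13 up and 14 down in KO.

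Gbp3 rose most, to 458, 449 and 462 CPM in WT and 403, 328 and 379 CPM in KO after 4 h of ActD (log2 2.31 and 1.86). Isg20 (2.11 and 1.54), Gbp2 (1.99 and 1.54), Mx1 (1.98 and 1.58) and Oas2 (1.58 and 1.54) followed. Rtp4 fell most, to 150.4, 140.5 and 165 CPM in WT and 139, 137 and 169 CPM in KO (−1.22 and −1.18), and Oasl1 (−1.04 and −0.97), Ifnar2 (−0.83 and −0.78) and Trim25 (−0.78 and −0.89) fell as well. For Rtp4 each library at 4 h was below each at 0 h in both genotypes. The effector Rsad2 reached 2405, 2222 and 1746 CPM in WT but 1199, 848 and 1058 CPM in KO, with no overlap. Its rise was 0.78 in WT and 0.38 in KO, the latter not called without KO replicate 1 at 4 h (0.25, edgeR adjusted p = 0.0951). With the ribosomal scaling the change of Rsad2 was 0.13 in WT and −0.21 in KO, neither called. Cmpk2 rose in WT (0.59) and was at 0.19 in KO, not called; with the ribosomal scaling it was at −0.07 and −0.41. Ifit2 rose by 1.12 in WT and 0.71 in KO, the latter at 0.11 and not called with the ribosomal scaling. Ifit1, alone among the IFIT genes, fell in both (−0.47 and −0.49), after a peak at 1 h (1647, 1365 and 1683 CPM in WT, 944, 969 and 955 CPM in KO).

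**Figure D3:**
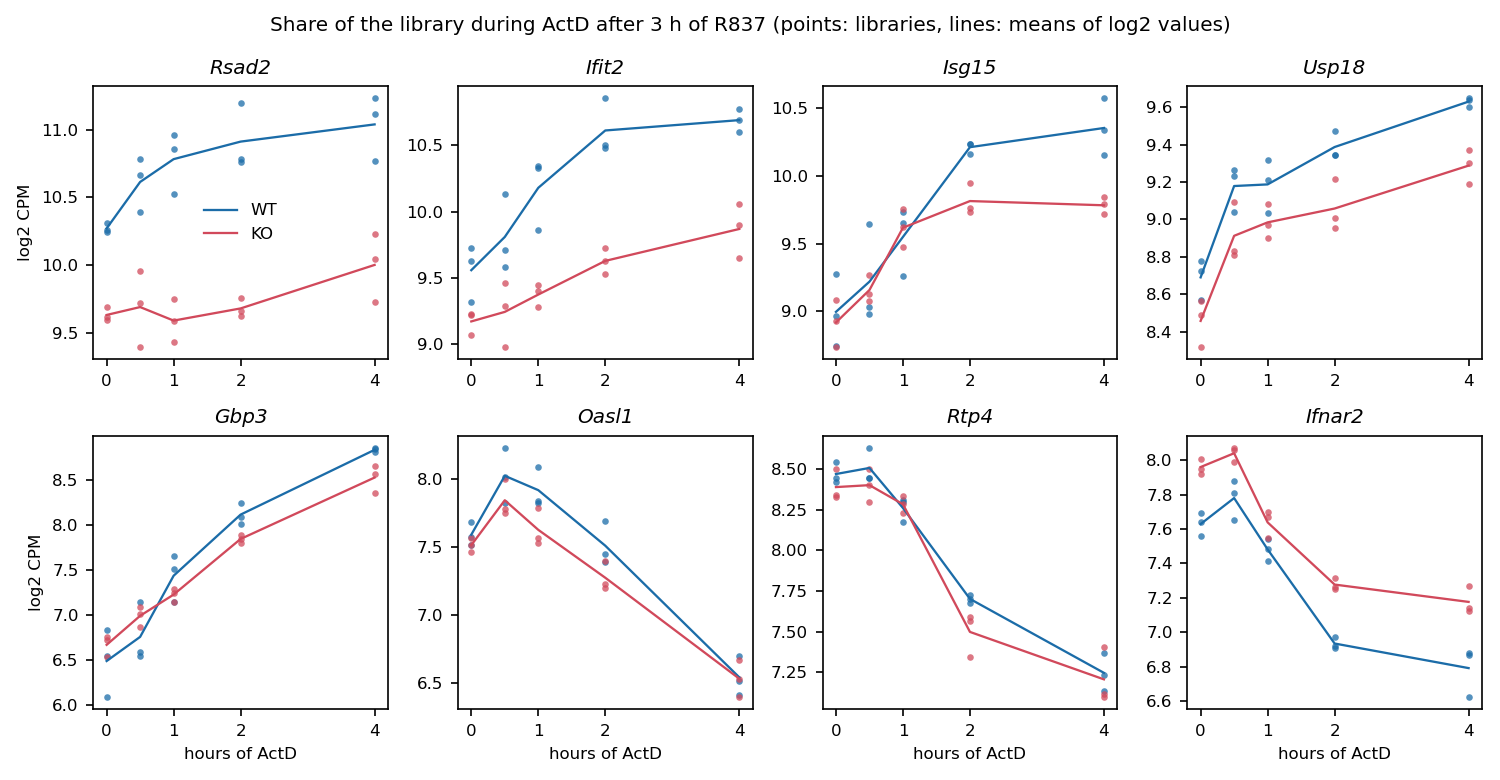
Log2 CPM of 8 genes against hours of ActD after 3 h of R837, with a point for each library and 1 line for each genotype. With TMM scaling Rsad2, Ifit2, Isg15, Usp18 and Gbp3 climb, Oasl1, Rtp4 and Ifnar2 descend, and the KO points of Rsad2 and Ifit2 stay below those of WT. With the ribosomal scaling Rsad2 did not climb, and the slopes of Ifit2 (0.09 per hour in WT and 0.03 in KO) were not called.

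Straight lines through 0, 0.5, 1, 2 and 4 h of ActD gave 31 rising and 5 falling slopes in WT (35.5% and 34.8% of 13537 genes) and 28 and 7 in KO (32.3% and 35.8%). The members' median slope was 0.22 per hour in WT and 0.15 per hour in KO on the log2 scale, and that of all genes 0.009 and −0.004. With the ribosomal scaling 14 rose and 10 fell in WT and 10 rose and 11 fell in KO, with medians over all genes of −0.201 and −0.162. The steepest slopes were those of Gbp3 (0.61 per hour in WT and 0.47 in KO), Isg20 (0.56 and 0.39), Mx1 (0.55 and 0.42) and Gbp2 (0.54 and 0.41), and of Rtp4 (−0.32 and −0.33), Oasl1 (−0.31 and −0.29), Ifnar2 (−0.23 and −0.22) and Trim25 (−0.20 and −0.23). Lines do not capture every course: fitted over 0 to 2 h, the WT slope of Trim25 was 0.06.

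No member's slope was called different between the genotypes by edgeR's quasi-likelihood test or by DESeq2, where 0.0517% of all genes had a higher and 0.0148% a lower slope in KO. In edgeR's quasi-likelihood test 16 members had an unadjusted p below 0.05 for the slope difference, each lower in KO (smallest edgeR adjusted p = 0.273). The share of all genes with an unadjusted p below 0.05 was not worked out. The count of 16 thus has no background and is not a result about the list. The median difference in slope was −0.07 per hour over the members and −0.013 over all genes.

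Cells at 7 h of R837 and cells at 3 h of R837 with 4 h of ActD had the same time since R837, with and without transcription in the last 4 h. In WT 7 members were higher and 24 lower with transcription left on (37.9% and 37.3% of all genes), with a median of −0.36 over the members and −0.023 over all genes. In KO the numbers were 10 and 20 (38% and 36.1%), with medians of −0.18 and −0.018. These numbers turned over with the ribosomal scaling, to 25 higher and 8 lower in WT and 20 and 10 in KO, with medians of all genes at 0.806 and 0.512 and of the members at 0.46 and 0.35. In KO with upper-quartile scaling the numbers were 6 and 24, with the median of all genes at −0.139 and that of the members at −0.30. Lowest were Rsad2 (−2.90 in WT and −2.43 in KO), Cmpk2 (−2.21 and −1.96), Ifit3b (−2.20 and −2.46) and Ifit2 (−2.15 and −2.29). Rtp4 (1.19 and 1.02), Ifnar2 (1.02 and 1.05), Ifi44 (0.53 and 0.30) and Herc6 (0.49 and 0.62) were higher with transcription on, Ifi44 in KO not without KO replicate 2 of the ActD group (0.18). For Rsad2 this sets 281 to 289 CPM at 7 h in WT beside 1746 to 2405 CPM after ActD.

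The gap between those 2 conditions differed between the genotypes for 6 members, 3 each way, where 6.71% of all genes had a higher and 7.94% a lower difference in KO. Usp18 was lower with transcription on in WT (−0.48) and higher in KO (0.40), a difference of 0.88 ± 0.11 (edgeR adjusted p = 2.54e-07). Gbp5 was lower in both (−1.95 in WT and −1.19 in KO), with a difference of 0.76 ± 0.12 (edgeR adjusted p = 5.18e-06). Oas3 was at 0.19 in WT, not called, and −0.42 in KO (difference −0.61 ± 0.15, edgeR adjusted p = 0.00307). Oasl2, at 0.16 and −0.33, gave −0.49 ± 0.12 (edgeR adjusted p = 0.0052). Usp18, Gbp5, Oas3 and Oasl2 kept the call in each of the 12 fits without 1 library. Trim25 (0.23, edgeR adjusted p = 0.0438) and Oas2 (−0.42, edgeR adjusted p = 0.0324) lost theirs in 9 and 8 of them, and Trim25 turned to −0.06 with the ribosomal scaling. That scaling gave 2 higher and 6 lower, with the median of all genes at −0.315.

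The genes around the list moved as follows. Of 14 genes from TLR7 to interferon production, 9 were called higher in KO at 3 h (64.3%, against 15.2% of all genes) and no other was called, among them Irf7 (0.61), the factor that drives interferon genes, the adaptor Traf3 (0.54), the chaperone Unc93b1 (0.36) and Tlr7 itself (0.30). At 7 h 4 were higher and 2 lower (28.6% and 14.3%, against 15.5% and 15.1% of all genes), Tank (0.55) and Traf3 (0.47) among the first and Irf5 among the second. The ribosomal scaling gave 11 higher at 3 h, with 32% of all genes, and 3 higher and 1 lower at 7 h, and the upper-quartile scaling 7 higher and 1 lower at 3 h. Irf5, a factor downstream of MyD88, was at 156, 141 and 138 CPM in WT and 53.6, 48.1 and 49.5 CPM in KO at 7 h, without overlap (log2 −1.52 ± 0.08, edgeR adjusted p = 1.29e-18).

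Of 10 genes of the JAK-STAT arm, 6 were called higher in KO at 3 h, Jak1 (0.42) and Ptpn1 (0.34) among them, and 5 at 7 h (60% and 50%, against 15.2% and 15.5% of all genes), and no other was called at either time. With ribosomal scaling the numbers were 9 and 4, against 32% and 11.3% of all genes. At 7 h the inhibitor Socs1 was at 5.60, 7.36 and 6.48 CPM in WT and 22.9, 24.2 and 22.6 CPM in KO, 3.58-fold higher (log2 1.84 ± 0.16, edgeR adjusted p = 3.67e-12). The phosphatases Ptpn1 (0.84) and Ptpn2 (0.51) and the inhibitor Socs3 (0.70) were higher then as well. Of 49 tested genes in a list of other interferon-induced genes, 16 were called higher at 3 h (32.7%) and 15 at 7 h (30.6%), against the same 15.2% and 15.5% of all genes. Lower calls, 6 at 3 h (12.2%) and 8 at 7 h (16.3%), were near the background of 12.6% and 15.1%. The ribosomal scaling gave 31 higher and 2 lower at 3 h and 11 higher and 4 lower at 7 h. Gbp6 (1.22) and Ifi205 (0.92) were high at 3 h and Gbp4 (1.02) and Ifi205 (1.01) at 7 h, while the chemokine gene Cxcl10 was at −0.62 at 3 h and 0.52 at 7 h and Tor3a at −0.60 at 7 h.

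Across the 12 group means, the genes most like the members' average pattern were Eif2ak2 (Pearson r = 0.977), Ifi209 (0.977), Fgfr1op2 (0.972), Ppp2r5c (0.972) and Pnpt1 (0.968). Among the members, Ifih1 (0.986), Oas2 (0.939) and Ifi47 (0.876) ran closest to the mean of the others, and Ifnar2 (−0.902), Rtp4 (−0.882) and Ifnar1 (−0.506) ran against it. These values describe 12 points that share the scaling and the order of treatments.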

How the data were processed

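RNA-seq of 36 libraries was analysed from the deposited tables. The aligner was GSNAP and the build GRCm38, per the submitters' processing notes. The sources used here name neither the counting program nor its annotation or strand setting. Libraries were made with a kit that does not mark strand, per the labels' protocols, so a gene and its antisense partner cannot be told apart. The deposited values were a whole-number count and an RPKM for each gene and library. The authors' RPKM values served to order genes by level; all tests used the counts.

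Genes were named from GENCODE M21 (52489 of 52636 identifiers). Counts were scaled by TMM, filtered with filterByExpr and tested with edgeR 4.0.16 (R 4.3.3, limma 3.58.1) by the quasi-likelihood F test in 1 model of 12 groups, with Benjamini-Hochberg adjustment over all 13748 genes at 0.05; slopes over hours of ActD used 30 libraries and 13537 genes. The biological coefficient of variation was 7.5%. CPM values are TMM-scaled. Replicate numbers only name libraries, in accession order, since the labels have none, and tie no libraries across conditions. Libraries of different conditions may come from the same mice. The model ignores such a pairing, so its p-values could then be too small or too large, depending on the comparison. Tested on simulated data for KO minus WT at 3 h (13748 genes), the test recovered 100 of 100 genes changed by 1 log2 unit and 95 of 100 changed by 0.585, with 17 false calls. The simulation gave every gene the same variation of 7.5% and all groups the same means, apart from the changed genes, which were not low in counts. It held no pairing of mice and no outlying replicate, so it does not give the power or error rate in the real libraries. Alternatives were DESeq2 1.42.0, RLE, upper-quartile and ribosomal scaling, other filters, thresholds and subsets, offsets for gene length, and leaving out each library. Levels by library are given for 12 members set by name and for those with the 3 largest rises and falls in each main comparison, and for others discussed after their values were seen. The 40 members, the lists and these rules were chosen with earlier results of these data known. Promoters were RefSeq windows of GRCm38.p6, with an entry for 33 of 40 members.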

Additional observations from a re-analysis of the deposited data

Results flagged for a closer look

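The change from 3 h to 7 h of R837 differed between KO and WT, by the interaction term of edgeR's quasi-likelihood test, for 8 members. In KO the change was higher for Usp18 (0.77 on the log2 scale) and Gbp5 (0.60). It was lower for Oas3 (−0.64), Ifi44 (−0.61), Ifit2 (−0.56), Oasl2 (−0.48), Oas2 (−0.45) and Dhx58 (−0.34).

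The gap between 7 h of R837 and 3 h of R837 with 4 h of ActD differed between KO and WT, by the same kind of term, for 6 members. It was higher in KO for Usp18 (0.88), Gbp5 (0.76) and Trim25 (0.23) and lower for Oas3 (−0.61), Oasl2 (−0.49) and Oas2 (−0.42). Both sets use the 7 h libraries, so they are not independent of each other. Groups of 3 libraries were not searched for outlying samples.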

How the results depend on the processing

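No paired analysis was possible because the labels give no replicate numbers. Of the values for single members under the alternatives, 8640 kept their side of the threshold, 323 lost and 210 gained a call, and 17 that were called in one of the fits changed sign. All members were counted in the genotype and time comparisons. Within a genotype, the change over ActD, its slope and the gap between 7 h and ActD were counted for some members only. These were Rsad2, Cmpk2, Ifit2 and those with the largest rises and falls. Among the 8640, 231 values without a call in either fit also changed sign, 65 of them under the ribosomal scaling. The number of members called at 3 h was 17, and 11 at an adjusted p below 0.01 (11 to 15 with 1 library left out). At 0.5 h of ActD it was 19, and 12 at that threshold and 10 in a fit of the compared libraries alone; at 1 h it was 23 and then 15, and at 2 h 25 and then 16. At 7 h it was 15, and 30 (9 higher and 21 lower) in a fit of the compared libraries alone. The 8 genotype differences in the change from 3 h to 7 h became 15 with the ribosomal scaling, 4 at 0.01, 15 in the fit of compared libraries and 4 to 10 with 1 library left out (4 without WT replicate 1 at 7 h). The 6 in the gap between 7 h and ActD became 12 without a filter on low counts, 10 with offsets for gene length, 14 in the fit of compared libraries and 4 to 8 with 1 library left out. The 35 slopes called in KO became 21 with the ribosomal scaling and 23 over 0 to 2 h. The 4 members lower in all 6 conditions became 1 with the ribosomal scaling and 2 to 4 with 1 library left out. With the ribosomal scaling these values, called in at least one of the fits, changed sign: Usp18 at 3 h (0.01); Rtp4 at 2 h of ActD (0.00); at 4 h of ActD Dhx58 (0.26), Oas1a (0.11), Oas1g (0.26), Igtp (0.05), Ifi35 (0.13) and Rtp4 (0.29); the change over 4 h of ActD for Cmpk2 in WT (−0.07) and for Rsad2 (−0.21) and Cmpk2 (−0.41) in KO; Trim25 in the gap between genotypes (−0.06); and the slopes of Rsad2 (−0.02 in WT, −0.06 in KO) and Cmpk2 (−0.06 and −0.12). In the ActD comparisons within a genotype this list holds only the members counted above, so others may have changed sign there. The slope of Trim25 in WT turned to 0.06 over 0 to 2 h. The cause of these changes was not tested. The genotype differences of Ifnb1 rest on about 1 CPM or less in most libraries, so depth limits what can be seen there.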
